A study of Mus musculus with 104 samples.

Results

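The AMPA and kainate receptor genes Gria1 to Gria4 and Grik1 to Grik5 were followed across 52 pieces of mouse nervous system and gland. They are 9 of the 18194 genes measured, 4 AMPA and 5 kainate receptor subunits, and were taken by name, each with the brightest of its single-gene probe sets over all arrays. All samples came from male Balb/c mice aged 7 to 8 weeks, and the labels name no genetic change or drug. The mice had arrived at 5 weeks of age and been adapted to 12 hours of light and 12 hours of dark for 2 weeks. The labels name both this cycle and constant darkness for sampling and do not say which applied to an array. Tissue was collected every 4 hours, RNA of 6 time points was pooled, and each region had 2 arrays. The regions were 49 pieces of brain and spinal cord, the retina, the pituitary and the pineal gland, and the series centres on the preoptic area with the basal forebrain (POA/BF). The design text says that each region was sampled independently on 2 occasions, but no label ties an array to animals, so the p-values here reflect only how far these arrays differ, which may be technical.

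AMPA and kainate receptors are cation channels opened by glutamate and built of several subunits each. GluA1 to GluA4, the products of Gria1 to Gria4, carry most fast excitatory transmission in the brain, and a channel that holds the edited form of GluA2 passes little calcium. GluK1 to GluK3, the products of Grik1 to Grik3, form kainate channels by themselves, whereas GluK4 and GluK5, the products of Grik4 and Grik5, bind kainate with high affinity and need a partner from GluK1 to GluK3. Kainate receptors are known for their part at the mossy fibre synapses of hippocampal CA3. In punched tissue, fewer cells of a type and less RNA per cell cannot be told apart.

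The start regions of 6 of the 9 genes were found in the RefSeq promoter table. Those of Gria4, Grik3 and Grik4 are printed as examples of genes with different highest regions. Gria4 was highest in cerebellar cortex, Grik3 in the median eminence and Grik4 in hippocampal CA2/CA3. Each window holds the 250 bases before the start in RefSeq on GRCm38.p6, read 5′ to 3′ along the gene, with matches to the GC box GGGCGG of Sp1 on either strand in capitals.
Gria4, chr9:4796235-4796484, minus strand: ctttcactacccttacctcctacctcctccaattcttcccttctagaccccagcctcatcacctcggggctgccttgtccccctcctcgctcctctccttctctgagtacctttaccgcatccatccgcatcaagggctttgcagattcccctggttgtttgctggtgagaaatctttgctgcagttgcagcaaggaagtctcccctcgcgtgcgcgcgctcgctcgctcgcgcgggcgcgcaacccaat
Grik3, chr4:125490446-125490695, plus strand: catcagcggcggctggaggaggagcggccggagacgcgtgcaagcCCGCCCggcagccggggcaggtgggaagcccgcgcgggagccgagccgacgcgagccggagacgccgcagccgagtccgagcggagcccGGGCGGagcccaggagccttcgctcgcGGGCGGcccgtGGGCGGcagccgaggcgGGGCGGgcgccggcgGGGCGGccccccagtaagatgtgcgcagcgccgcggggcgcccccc
Grik4, chr9:42944372-42944621, minus strand: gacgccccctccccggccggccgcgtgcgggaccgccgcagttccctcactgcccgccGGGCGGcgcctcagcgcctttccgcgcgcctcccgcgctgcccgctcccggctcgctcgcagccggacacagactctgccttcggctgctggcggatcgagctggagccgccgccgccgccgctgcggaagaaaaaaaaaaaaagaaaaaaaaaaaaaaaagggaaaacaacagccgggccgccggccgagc
The Grik3 window held 6 GC boxes, that of Grik5 held 2, that of Grik4 held 1, and those of Gria2, Gria4 and Grik2 held 0. Of 32851 promoter windows of this length, 32.7% held at least 1. The cyclic AMP response element TGACGTCA, on either strand, stood in 1.55% of all windows and in 0 of these 6. The core promoter motif TATAAA, on either strand, stood in 12.4% of all windows and also in 0 of these 6. Guanine and cytosine made up 82.0% of the Grik3 window and 58.8% of the Gria4 window, against a median of 52.4% over all windows. The absence of a match says only that these letters are not in this window.

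Values of all probe sets lay between 3.88 and 15.15 on the log2 scale, with 7.39 as the median of all values. Across genes, which are not independent replicates, both arrays of a region had r = 0.972 (retina) to 0.998. Of 51 region markers measured, 35 were highest in the class their label names and 46 ranked 1 to 3 in it. No isocortex marker measured was highest in isocortex, where the best ranks were 2 for Tbr1, 4 for Neurod6 and 7 for Slc17a7. In CA2/CA3 Rgs14 was highest, but Bok and Amigo2 ranked 6 and 7. Hoxc9 ranked 4 in spinal cord. Labels and markers did not match everywhere. The arrays labelled retina held growth hormone (Gh) at 14.69 on average, near the 14.70 of the pituitary, together with photoreceptor genes such as Gnat1 at 12.16. Lhx8, a basal forebrain factor, had its top level under the label lateral hypothalamus (9.70 and 8.98). These arrays held Pmch and Hcrt, peptide genes of lateral hypothalamic neurons, at 7.66 and 7.73 and at 7.32 and 7.78, ranks 14 and 13 of 52, against 13.93 and 14.03 and 11.17 and 11.05 in the dorsomedial nucleus. Nr5a1, a factor of the ventromedial nucleus, was highest in the arrays labelled dorsal subparaventricular zone (9.18 and 9.27, against 8.49 and 8.51 in the ventromedial nucleus itself). In both POA/BF arrays the control probe values were out of step with their names.

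All 9 genes differed among regions. The limma F test, with a call at an adjusted p under 0.05 and a range of region means of at least 2-fold, called 9 of 9, and it called 60.3% of all genes. Within the 49 regions of brain and spinal cord, a restriction added after seeing the data, it again called 9 of 9, against 47.5% of genes. The ranges of region means within brain and cord were 27.3-fold for Gria1 and 24.0-fold for Grik3, wider than those of 98.7% and 98.4% of genes. At the other end, Grik4 spanned 3.30-fold, wider than 78.4% of genes. The adjusted p of the F test was at most 2.67e-15 for the 9 genes. Levels of different genes come from different probes and are not set against each other below.

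**Figure D1:**
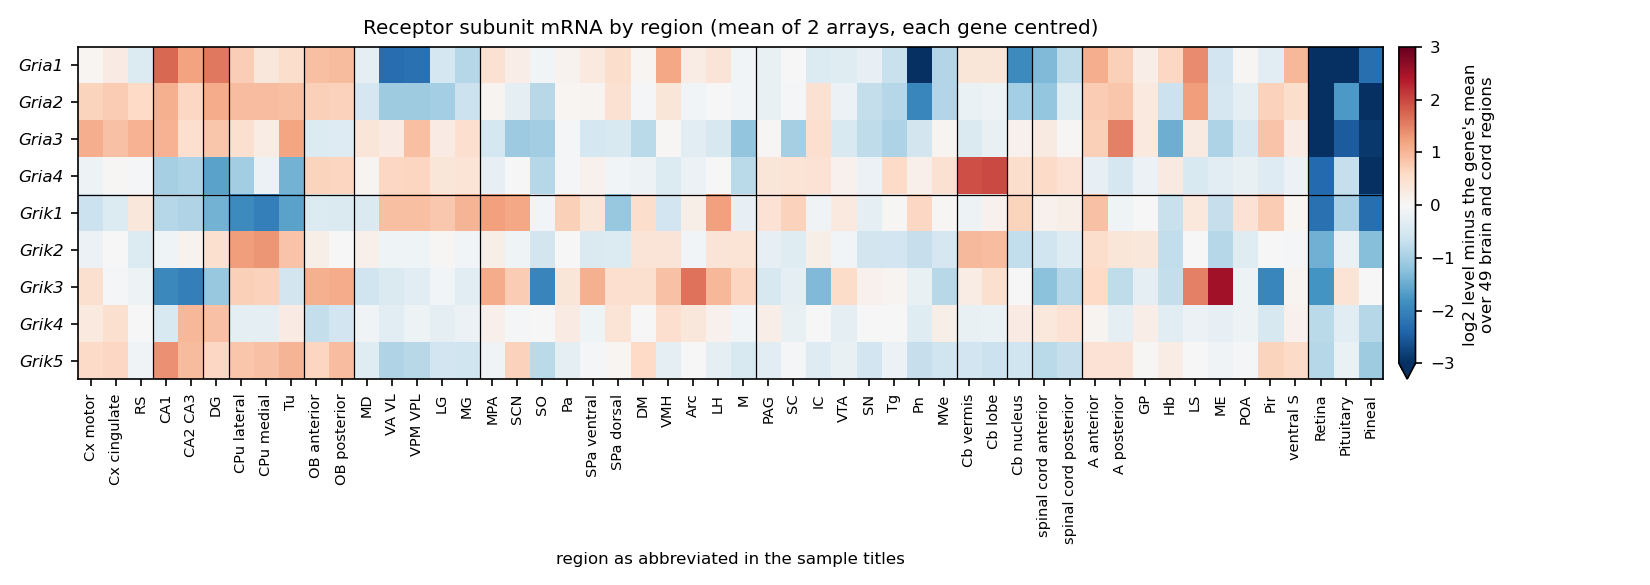
Region means (2 arrays each) of the 9 subunit genes, as log2 level minus the mean of that gene over the 49 regions of brain and spinal cord. Rows are genes, columns are regions in the abbreviations of the sample titles, and lines separate, from the left, isocortex, CA fields, dentate gyrus, striatum, olfactory bulb, thalamus, hypothalamus, brainstem, cerebellar cortex, cerebellar nucleus, spinal cord, 9 other brain regions, and retina with the glands; colours are clipped at the ends of the scale. Gria4 stands out in both pieces of cerebellar cortex, Grik3 in the median eminence (ME), and most genes are low in retina and pineal gland.

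Gria1 encodes GluA1, the subunit known for its part in synaptic plasticity in the hippocampus. Its level was highest in CA1 (12.84 and 12.74 in the 2 arrays), followed by the dentate gyrus (12.80 and 12.49), the lateral septum (12.51 and 12.46) and CA2/CA3 (12.24 and 12.27). The arrays of CA1 and dentate gyrus overlapped, and those of the lateral septum and CA2/CA3 lay below CA1. The ventromedial hypothalamus (12.31 and 12.14), anterior amygdala (11.81 and 12.48) and ventral subiculum (11.92 and 12.20) came next. The lowest levels in brain and cord were those of the pontine nucleus (8.02 and 8.03), which sends the main cortical input to the cerebellum. The ventral thalamic nuclei were the next lowest, at 8.90 and 8.63 in the ventral anterior and ventrolateral piece and 8.84 and 8.79 in the ventral posterior piece. Among the 51 neighbouring pairs in the order of region means, the arrays of 11 pairs did not overlap.

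Gria2 encodes GluA2, the subunit whose RNA editing sets the calcium permeability of the channel. It was highest in the lateral septum (13.05 and 12.70), whose arrays overlapped those of the dentate gyrus (12.82 and 12.68) and CA1 (12.79 and 12.61). Another Gria2 probe set was highest in CA1. The 3 striatal pieces followed, with means from 12.52 in the olfactory tubercle to 12.56 in medial caudate putamen. The lowest levels in brain and cord were again those of the pontine nucleus (9.54 and 9.83), with anterior spinal cord (10.40 and 10.56) and the ventral thalamic nuclei (10.87 and 10.27; 10.58 and 10.57) just above. The pontine nucleus and the ventral thalamic nuclei were thus near the bottom for both Gria1 and Gria2. In 9 of 51 neighbouring pairs the arrays did not overlap.

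Gria3 encodes GluA3. It was highest in the posterior amygdala (11.09 and 11.45), the olfactory tubercle (10.99 and 10.92) and motor cortex (11.15 and 10.55), and only the arrays of motor cortex overlapped those of the posterior amygdala. The other Gria3 probe set, nearly as bright on average (9.59 against 9.60), was instead highest in CA1, so the top region depends on the probe set. The ventral posterior thalamus, where Gria1 was low, held Gria3 at 10.84 and 10.50, rank 6 of 52. The habenula had the lowest level of brain and cord (8.23 and 8.39), followed by the mammillary body (8.65 and 8.52) and the suprachiasmatic nucleus (8.82 and 8.52). Retina (6.48 and 6.26), pineal gland (6.88 and 6.85) and pituitary (7.20 and 7.33) lay below every brain array and under the median of all values.

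Gria4 encodes GluA4, known for fast-gating channels in cerebellum and brainstem. Both pieces of cerebellar cortex stood apart, with 12.38 and 12.34 in the lobe and 12.36 and 12.25 in the vermis. No other array exceeded 11.15, which was reached in the anterior olfactory bulb (10.93 and 11.15). Among the regions that followed were the posterior olfactory bulb (10.96 and 11.05), ventral posterior thalamus (11.05 and 10.96), anterior spinal cord (10.90 and 10.99) and dorsal tegmental nucleus (10.94 and 10.94). These values lay within the range of the anterior olfactory bulb or just under it. The dentate gyrus was lowest in brain (8.94 and 8.60), with the olfactory tubercle (8.92 and 8.98), lateral caudate putamen (9.32 and 9.35) and CA1 (9.40 and 9.33) above it. CA1 and the dentate gyrus, at the top of the Gria1 order, were thus near the bottom of the Gria4 order.

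Grik1 encodes GluK1. It was highest at 8.33 and 8.35 in the medial preoptic area, 8.43 and 8.23 in the arrays labelled lateral hypothalamus, whose Pmch and Hcrt levels did not match that label, and 8.26 and 8.27 in the suprachiasmatic nucleus. The medial geniculate (8.27 and 8.00) and the ventral thalamic nuclei (8.13 and 7.90; 8.18 and 7.81) came next, while the mediodorsal nucleus of the thalamus held 6.80 and 6.54. The striatum was lowest in brain and cord, with 5.06 and 5.06 in medial and 5.29 and 5.13 in lateral caudate putamen and 5.60 and 5.41 in the olfactory tubercle. In 32 of 52 regions the mean lay below the median of all values, 7.39, where fold sizes are uncertain.

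Grik2 encodes GluK2, the subunit present in most brain kainate receptors. The caudate putamen, lowest in brain and cord for Grik1, was highest for Grik2: medial (9.35 and 9.46) and lateral (9.20 and 9.43) pieces overlapped, with the cerebellar vermis (9.09 and 9.01), cerebellar lobe (8.91 and 9.07) and olfactory tubercle (8.86 and 8.98) next. The dentate gyrus (8.51 and 8.61) lay above CA2/CA3 (8.10 and 8.26) and CA1 (8.05 and 7.82). The median eminence (7.16 and 7.28), cerebellar nucleus (7.18 and 7.47) and habenula (7.43 and 7.24) were lowest in brain and cord, with overlapping arrays.

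Grik3 encodes GluK3. The median eminence, where hypothalamic axons release hormones into portal vessels, was highest (10.70 and 11.06), and its arrays overlapped those of no other region. The arcuate nucleus next to it (9.76 and 10.19) and the lateral septum (9.98 and 9.74) followed. The 4 lowest were CA2/CA3 (6.02 and 6.57), the supraoptic nucleus (6.28 and 6.44), piriform cortex (6.30 and 6.49) and CA1 (6.72 and 6.12). The supraoptic nucleus was thus far below the other hypothalamic pieces, whose means ran from 8.72 upward. Arrays of a region differed more for Grik3 than for the other genes, with a median SD of 0.19 over regions, and only 4 of 51 neighbouring pairs did not overlap.

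Grik4 encodes the high-affinity subunit GluK4. CA2/CA3 was highest (9.02 and 9.17), above the dentate gyrus (8.97 and 8.97), and neither overlapped the third region, the ventromedial hypothalamus (8.73 and 8.46). CA1, a neighbouring hippocampal field, was near the bottom (7.73 and 7.51), with piriform cortex (7.67 and 7.55) and the posterior (7.56 and 7.47) and anterior (7.39 and 7.35) olfactory bulb below it. Outside hippocampus the order was shallow, and arrays of 5 of 51 neighbouring pairs did not overlap.

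Grik5 encodes GluK5, the other high-affinity subunit. CA1 was highest (11.36 and 11.29), and its arrays overlapped those of no other region. The olfactory tubercle (10.79 and 11.12), CA2/CA3 (10.64 and 11.15), the posterior olfactory bulb (10.80 and 10.96) and the caudate putamen (10.91 and 10.72 medial, 10.81 and 10.77 lateral) came next with overlapping arrays. The ventral thalamic nuclei (8.88 and 9.21; 9.08 and 9.15) and anterior spinal cord (9.25 and 9.02) were lowest in brain and cord. Grik4 and Grik5 thus had their highest levels in different hippocampal fields.

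**Figure D2:**
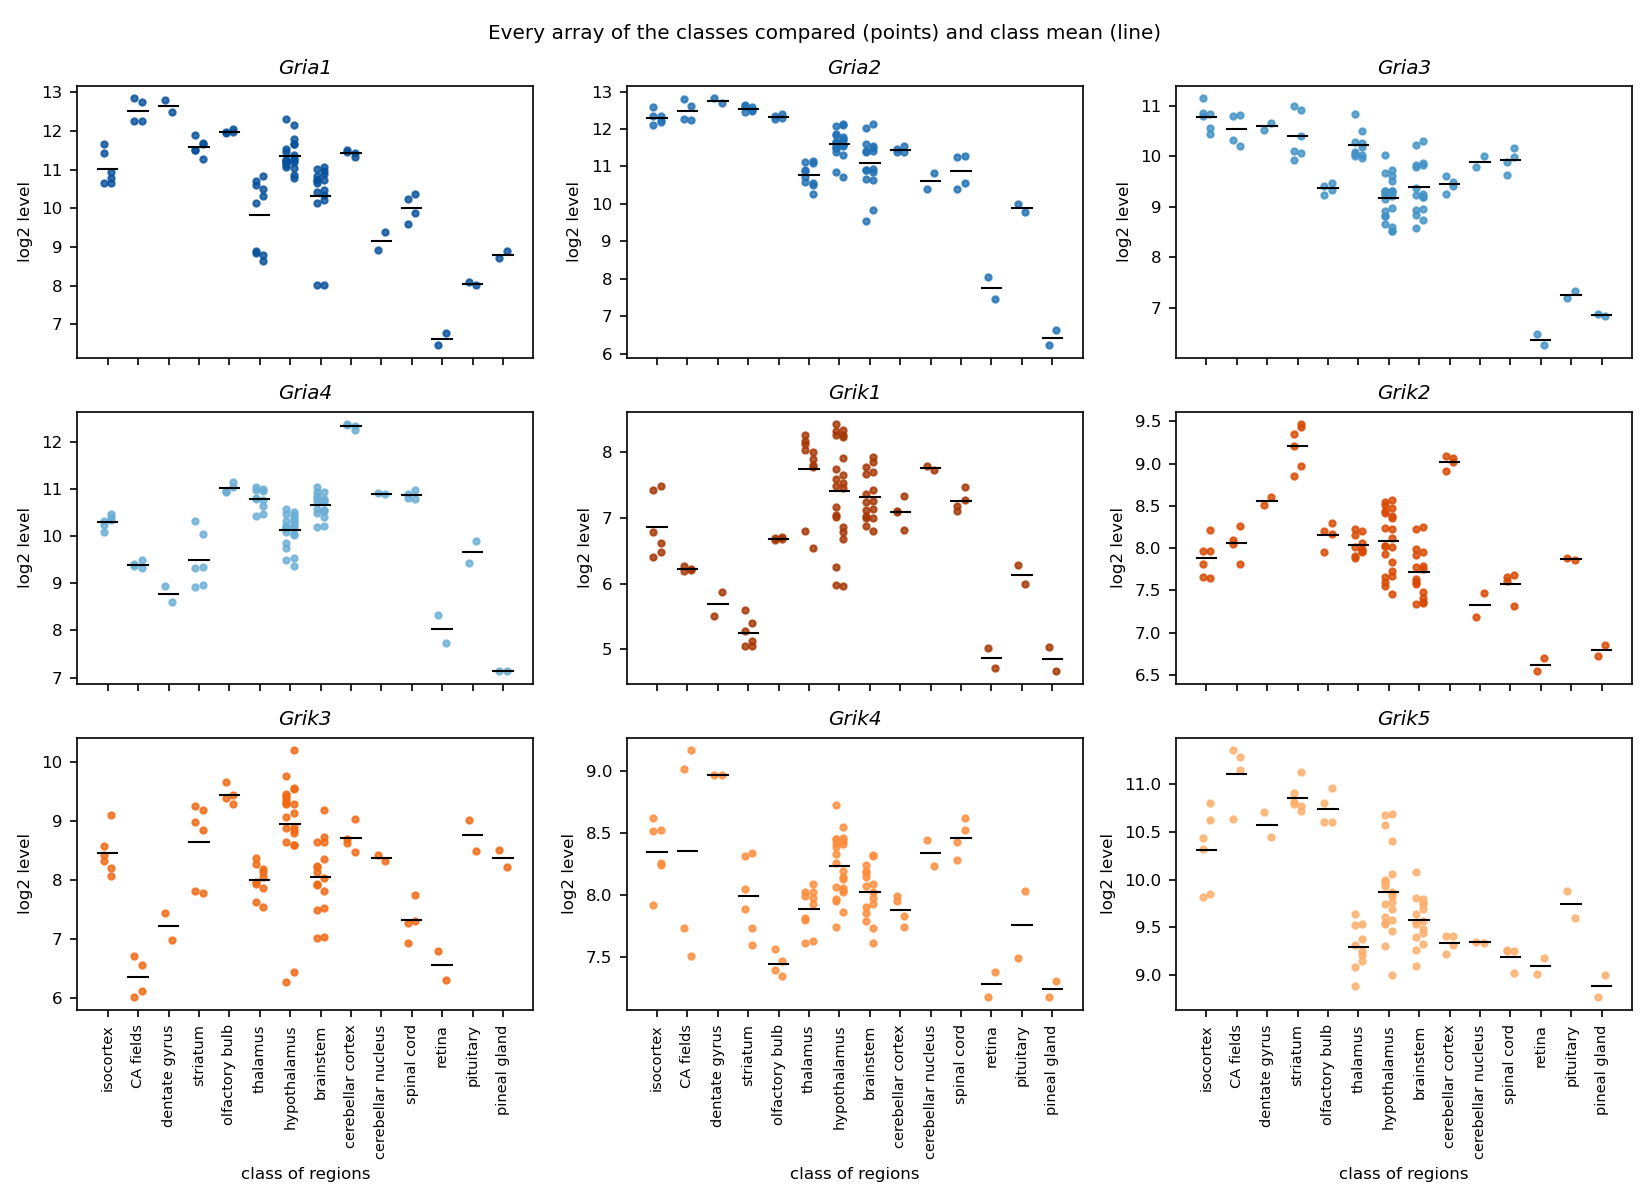
log2 level of each subunit gene (one panel per gene, with its own vertical axis) in every array of the classes of regions compared; points are arrays, the 2 arrays of a region are set side by side, and the line is the mean over the regions of the class. The 4 arrays of cerebellar cortex lie above all others for Gria4, those of striatum above isocortex for Grik2 and below it for Grik1, and the CA fields split into a high and a low pair for Grik4.

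Classes of regions were compared in a limma model with a mean for each region, and a gene was called at a Benjamini-Hochberg adjusted p under 0.05 over all 18194 genes and a difference of at least 2-fold. The error in these tests is that between arrays of one region, so regions of a class count as fixed. Isocortex (motor, cingulate and retrosplenial cortex, 6 arrays) was the reference of 7 comparisons, which therefore share its arrays. Its levels were 10.64 to 11.67 (median 10.86) for Gria1, 12.10 to 12.59 (median 12.29) for Gria2, 10.44 to 11.15 (median 10.81) for Gria3 and 10.10 to 10.48 (median 10.33) for Gria4. For the kainate subunits they were 6.41 to 7.49 (median 6.70) for Grik1, 7.64 to 8.21 (median 7.89) for Grik2, 8.07 to 9.10 (median 8.37) for Grik3, 7.92 to 8.62 (median 8.39) for Grik4 and 9.82 to 10.80 (median 10.38) for Grik5.

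**Figure D3:**
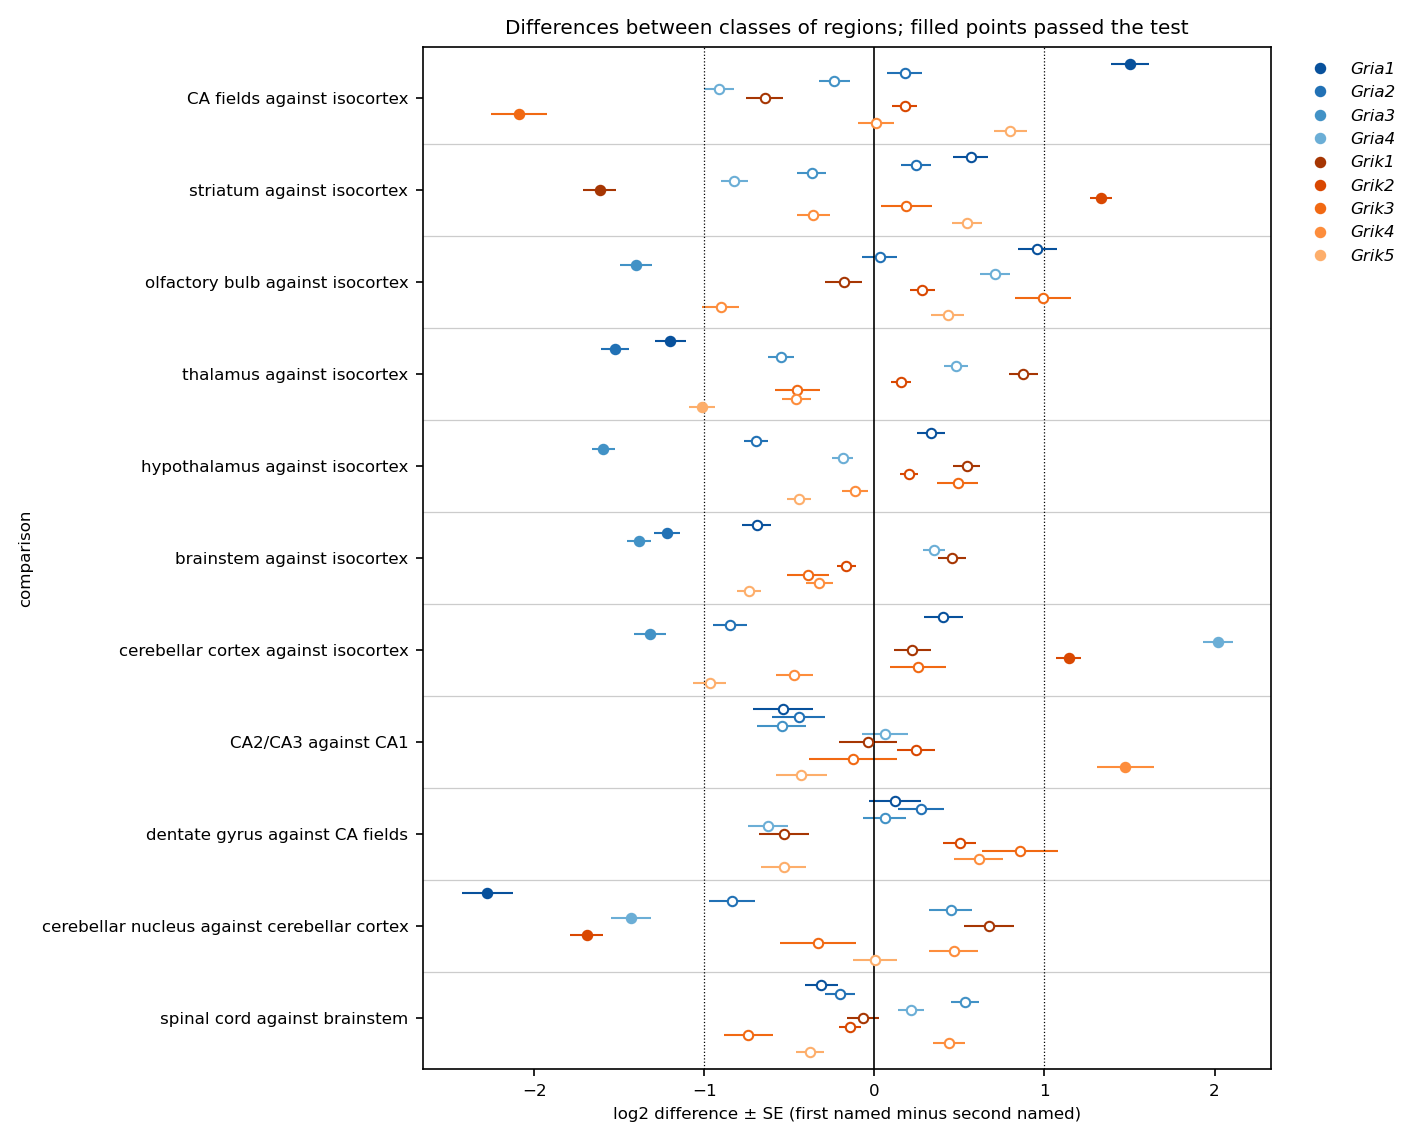
log2 difference ± SE of each subunit gene in 11 comparisons between classes of regions, first named minus second named; filled points were called (adjusted p under 0.05 and at least 2-fold) and dotted lines mark 2-fold. Gria4 rises furthest in cerebellar cortex, Gria1 falls furthest in the cerebellar nucleus, and Grik1 and Grik2 part in striatum.

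In the hippocampal CA fields, Gria1 was higher than in isocortex and Grik3 lower. The 4 CA arrays held Gria1 at 12.24 to 12.84 (median 12.51), all above the isocortical arrays, a difference of 2.83-fold (1.50 ± 0.11 SE on the log2 scale, adjusted p = 1.54e-17). Grik3 lay at 6.02 to 6.72 (median 6.35), all below isocortex, a difference of 4.26-fold (-2.09 ± 0.17 SE on the log2 scale, adjusted p = 1.16e-16), and the size of this fold is uncertain because the CA mean was under 7.39. With the mean of the probe sets it was -1.13 and was still called. The second Grik3 probe set varied little over regions (range 0.55), so this mean mainly reduces the difference of the one used. These 2 of 9 calls compare with 2.52% of all genes. Gria4 differed by -0.91 ± 0.088 and Grik5 by 0.80 ± 0.10, short of 2-fold. Among 18 genes of auxiliary receptor proteins measured, 4 were higher and 2 lower. Shisa6, an AMPA receptor auxiliary protein, led with 3.16 ± 0.10 (adjusted p = 9.76e-36), ahead of the cornichon Cnih2 at 2.15 ± 0.10 (adjusted p = 3.37e-27). Gsg1l (-1.65 ± 0.11) and the TARP Cacng3 (-1.11 ± 0.11) were lower. Synaptic partners were higher in 1 of 19 and lower in 3, with Lrrtm1 at 1.40 ± 0.13 and C1ql3 at -1.62 ± 0.25. Oligodendrocyte markers moved too: 6 of 9 were higher, with mean levels of the list at 10.61 to 11.44 in the CA fields and 9.31 to 10.47 in isocortex, and their part in the result was not tested.

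Within the hippocampus, Grik4 separated CA2/CA3 from CA1. It stood at 9.02 and 9.17 in CA2/CA3 and 7.73 and 7.51 in CA1, with no overlap and a difference of 2.78-fold (1.47 ± 0.17 SE on the log2 scale, adjusted p = 3.06e-10). It was the 1 of 9 genes called, against 1.83% of all genes. Gria1 (-0.54 ± 0.18), Gria2 (-0.45 ± 0.16), Gria3 (-0.55 ± 0.15) and Grik5 (-0.43 ± 0.15) had lower values in CA2/CA3, with adjusted p from 0.00418 to 0.0345 but under 2-fold. Neto1, an auxiliary subunit of kainate receptors, was higher in CA2/CA3 by 1.96 ± 0.12 (adjusted p = 5.96e-20), as was the TARP Cacng5 (1.93 ± 0.20). Cacng3 (-1.35 ± 0.16), the scaffold Dlg4 (-1.30 ± 0.34) and the complement-like C1ql3 (-2.28 ± 0.39) were lower. Of 18 auxiliary genes 2 were higher and 1 lower, and of 19 partners 0 and 3. In addition, 3 of 9 oligodendrocyte markers were higher in CA2/CA3 (list mean 11.44 against 10.61), whose part was not tested.

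Between the dentate gyrus and the CA fields 0 of 9 genes were called, against 2.33% of all genes. At an unadjusted p under 0.05, limma found 7 of 9, and the share of all genes at that level was not counted. Grik3 was at 7.44 and 6.99 in the dentate gyrus and 6.02 to 6.72 (median 6.35) in the CA fields, a difference of 0.86 ± 0.22 (adjusted p = 0.00209) that reached 2-fold without CA1 replicate 1 (1.01) or without dentate replicate 2 (1.08). Gria4 differed by -0.63 ± 0.12, Grik1 by -0.53 ± 0.15 and Grik2 by 0.50 ± 0.10, each without overlap of arrays. Among the receptor partners, C1ql2, known to bind kainate receptors at mossy fibres, was higher by 2.66 ± 0.14 (adjusted p = 6.99e-24), and C1ql3 by 2.34 ± 0.34. Over all regions, however, C1ql2 was highest in the medial preoptic area (mean 10.63), with the dentate gyrus (10.55) at rank 2. The pentraxin Nptx2 (-1.41 ± 0.15) and the noelin Olfm3 (-1.24 ± 0.20) were lower, and no other partner of the 19 was called. The cornichon Cnih3 was higher (1.83 ± 0.15) and Cnih2 lower (-1.07 ± 0.13), among 2 auxiliary genes higher and 1 lower of 18. Of 9 oligodendrocyte markers 7 were lower in the dentate gyrus (list mean 9.58), and their part was not tested.

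In the striatum the kainate subunits Grik1 and Grik2 changed in opposite directions. Grik2 lay at 8.86 to 9.46 (median 9.27) over 6 striatal arrays, above all isocortical arrays, a difference of 2.52-fold (1.33 ± 0.066 SE on the log2 scale, adjusted p = 1.19e-26). Grik1 lay at 5.06 to 5.60 (median 5.21), below all isocortical arrays, a difference of 3.06-fold (-1.61 ± 0.10 SE on the log2 scale, adjusted p = 2.76e-22), with both class means under 7.39, so that the size of the fold is uncertain. When the probe sets of a gene were averaged, the Grik1 difference was -0.79 and was not called. The second Grik1 probe set varied little over regions (range 0.97), so averaging mainly reduces the difference of the one used. The 2 of 9 calls compare with 3.86% of all genes. Gria4 differed by -0.82 ± 0.078 with overlapping arrays, since medial caudate putamen held 10.31 and 10.06 and lateral caudate putamen 9.32 and 9.35. Auxiliary genes were higher in 4 of 18 and lower in 1, with Cacng5 (1.66 ± 0.11) and Cacng4 (1.61 ± 0.064) up and Cnih3 down (-1.38 ± 0.10). Of the partners, 4 of 19 were lower and 0 higher, led by C1ql3 (-4.87 ± 0.22) and the noelin Olfm1 (-2.75 ± 0.071). Pan-neuronal markers were lower in 4 of 10 (list mean 11.29 to 11.50 against 12.17 to 12.38), and their part was not tested.

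In the olfactory bulb Gria3 was lower than in isocortex, at 9.24 to 9.47 (median 9.38) over 4 arrays, all below isocortex, a difference of 2.65-fold (-1.40 ± 0.094 SE on the log2 scale, adjusted p = 2.77e-20). It was the 1 of 9 genes called, against 5.42% of all genes. Grik3 (0.99 ± 0.17) and Gria1 (0.96 ± 0.11) fell just short of 2-fold with arrays that did not overlap, and either was called without some arrays. Gria1 was called without motor cortex replicate 1 or cingulate cortex replicate 1 (1.07 and 1.08), and Grik3 without retrosplenial replicate 1, motor cortex replicate 2, cingulate cortex replicate 1, anterior bulb replicate 1 or posterior bulb replicate 2 (1.01 to 1.09). With the mean of probe sets Gria1 was at 1.18 and called, and with the hybridisation controls as a covariate Gria1 (1.31) and Grik3 (1.26) were called. These controls averaged 9.94 in the olfactory bulb and 10.79 in isocortex, and the slope of the covariate came only from differences between arrays of one region. Gria4 differed by 0.71 ± 0.088 and Grik4 by -0.91 ± 0.11, also without overlap. The TARP Cacng5 was higher by 4.57 ± 0.13 (adjusted p = 5.01e-39), and Grip2, a scaffold that binds GluA2, by 1.91 ± 0.083. Of 18 auxiliary genes 2 were higher and 4 lower, led downward by Gsg1l (-1.50 ± 0.11) and Cacng3 (-1.28 ± 0.11). Synaptic partners were higher in 3 of 19 and lower in 3, with C1ql3 at -3.84 ± 0.25 and Olfm2 at -1.57 ± 0.12. Meningeal fibroblast markers were higher in 5 of 10 and astrocyte markers in 4 of 10, with list means of 8.66 to 8.88 against 7.32 to 7.79 and 11.51 to 11.57 against 10.65 to 11.12. Pan-neuronal markers were lower in 3 of 10, and the part of these lists was not tested.

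In the thalamus 3 of 9 genes were lower than in isocortex and 0 higher, against 4.33% of all genes called either way. Gria2 lay at 10.27 to 11.14 (median 10.79) over 10 arrays, all below isocortex, a difference of 2.88-fold (-1.53 ± 0.080 SE on the log2 scale, adjusted p = 2.58e-25). Gria1 lay at 8.63 to 10.83 (median 10.21), a difference of 2.30-fold (-1.20 ± 0.091 SE on the log2 scale, adjusted p = 4.29e-18), with overlap. The ventral nuclei held Gria1 at means of 8.77 and 8.81, while the mediodorsal (10.77), lateral geniculate (10.54) and medial geniculate (10.21) nuclei held more. With region means as the samples, the Gria1 call was lost (adjusted p = 0.126). Grik5 differed by -1.01 ± 0.078 without overlap, at the threshold: it was not called under quantile normalization (-0.99), nor without motor cortex replicate 2, cingulate cortex replicate 2, ventral anterior thalamus replicate 1 or lateral geniculate replicate 2 (-0.94 to -0.99). Gria4 (0.48 ± 0.070) and Grik1 (0.88 ± 0.087) had higher values, short of 2-fold. Adarb1, the enzyme that edits the Gria2 RNA, was higher by 1.66 ± 0.052 (adjusted p = 1.06e-36), and its relative Adarb2 by 2.46 ± 0.092. Adarb2 was also called higher in the olfactory bulb against isocortex (1.71) and in the dentate gyrus against the CA fields (1.10). Both genes were called lower in the retina and pineal gland than in brain and cord, and Adarb1 in the pituitary. RNA editing itself was not measured. The TARPs again parted, with Cacng5 at 3.28 ± 0.10 and Cacng3 at -2.99 ± 0.085, and 2 of 18 auxiliary genes were higher and 3 lower. Among 19 synaptic partners 2 were higher and 5 lower, with Lrrtm1 at 1.88 ± 0.10 and C1ql3 at -2.98 ± 0.20. Oligodendrocyte markers were higher in 8 of 9, with list means of 10.72 to 12.02 over the nuclei, and their part was not tested.

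In the hypothalamus (11 regions, 22 arrays) Gria3 was lower, at 8.52 to 10.02 (median 9.25), with no overlap and a difference of 3.02-fold (-1.59 ± 0.067 SE on the log2 scale, adjusted p = 2.18e-30). The median eminence was not part of this class. It was the 1 of 9 genes called, against 4.56% of all genes, also without the arrays labelled lateral hypothalamus. Grik3 and Grik1 ranged widely within this class. Grik3 ran from 6.28 in the supraoptic nucleus to 10.19 in the arcuate nucleus, and Grik1 from 5.97 in the dorsal subparaventricular piece to 8.43 in an array labelled lateral hypothalamus, or 8.35 in the medial preoptic area. The ventral subparaventricular piece held Grik1 at 7.49 and 7.45, against 5.98 and 5.97 in the dorsal piece, whose Nr5a1 level was out of place. Cacng5 was higher (2.10 ± 0.091) and Cacng3 (-2.57 ± 0.076) and Gsg1l (-1.27 ± 0.076) lower, with 1 of 18 auxiliary genes higher and 4 lower in all. Of 19 synaptic partners 0 were higher and 3 lower, led by C1ql3 (-2.51 ± 0.18). Pan-neuronal markers were lower in 2 of 10, with list means of 10.98 to 12.20 over the regions, and their part was not tested.

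In the brainstem (8 regions, 16 arrays) Gria2 and Gria3 were lower than in isocortex. Gria3 lay at 8.59 to 10.31 (median 9.24), all below isocortex, a difference of 2.61-fold (-1.38 ± 0.070 SE on the log2 scale, adjusted p = 3.13e-26). Gria2 lay at 9.54 to 12.14 (median 11.16), a difference of 2.33-fold (-1.22 ± 0.074 SE on the log2 scale, adjusted p = 2.96e-22), and only the inferior colliculus (12.03 and 12.14) reached isocortical arrays. These 2 of 9 calls compare with 3.98% of all genes. Grik5 (-0.74 ± 0.072) and Gria1 (-0.69 ± 0.084) had lower values and Grik1 (0.46 ± 0.081) and Gria4 (0.35 ± 0.065) higher ones, all under 2-fold. Cacng3 (-2.25 ± 0.079), Cnih3 (-1.29 ± 0.085) and Dlg4 (-1.43 ± 0.16) were lower and Cacng5 higher (1.49 ± 0.095), with 1 of 18 auxiliary genes higher and 3 lower. Of 19 synaptic partners 0 were higher and 4 lower, led by C1ql3 (-2.56 ± 0.19). Of 9 oligodendrocyte markers 7 were higher (list means 10.92 to 11.96) and 3 of 10 astrocyte markers, and their part was not tested.

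Cerebellar cortex had the largest rise of a subunit gene among the 7 comparisons with isocortex. Gria4 stood at 12.38 and 12.34 in the lobe and 12.36 and 12.25 in the vermis, a difference of 4.05-fold (2.02 ± 0.088 SE on the log2 scale, adjusted p = 1.6e-29). Grik2 was higher as well, at 8.91 and 9.07 and 9.09 and 9.01, a difference of 2.21-fold (1.14 ± 0.073 SE on the log2 scale, adjusted p = 2.8e-21). Gria3 was lower, at 9.61 and 9.49 and 9.26 and 9.42, a difference of 2.50-fold (-1.32 ± 0.094 SE on the log2 scale, adjusted p = 2.6e-19). None of these arrays overlapped isocortex, and the 3 of 9 calls compare with 7.02% of all genes. Grik5 differed by -0.97 ± 0.10, close to the threshold. It was called under quantile normalization (-1.02), with the hybridisation controls as a covariate (-1.02), and without motor cortex replicate 1, cingulate cortex replicate 1 or cerebellar lobe replicate 2 (reaching -1.05). Auxiliary genes parted, with 4 of 18 higher and 5 lower. Shisa6 (2.60 ± 0.10) and Cacng5 (2.17 ± 0.13) rose most, and Cacng3 (-3.23 ± 0.11) and Cnih3 (-2.12 ± 0.11) fell most. Among 19 partners 2 were higher and 4 lower: the noelin Olfm3 (2.77 ± 0.15) and the pentraxin Nptx1 (1.37 ± 0.091) were higher, and C1ql3 (-3.84 ± 0.25) and the adhesion protein Lrrtm1 (-3.23 ± 0.13) led those that were lower. Microglia markers were lower in 4 of 9 (list means 7.98 in both pieces against 8.77 to 9.35), and astrocyte markers were higher in 3 and lower in 1 of 10, and their part was not tested.

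The cerebellar nucleus, the output of the cerebellum, differed from cerebellar cortex in 3 of 9 genes, all lower, against 6.62% of all genes called either way. Gria1 was at 8.92 and 9.39 in the nucleus and 11.33 to 11.51 (median 11.43) in the cortex, a difference of 4.84-fold (-2.28 ± 0.15 SE on the log2 scale, adjusted p = 6.89e-20). Grik2 was at 7.18 and 7.47, a difference of 3.23-fold (-1.69 ± 0.10 SE on the log2 scale, adjusted p = 1.5e-22), and Gria4 at 10.91 and 10.89, a difference of 2.70-fold (-1.43 ± 0.12 SE on the log2 scale, adjusted p = 3.42e-16). Arrays of the 2 classes did not overlap for these genes. The Grik2 mean in the nucleus was under 7.39, so the size of that fold is uncertain. Gria2 differed by -0.84 ± 0.13, Grik1 by 0.67 ± 0.15, Grik4 by 0.47 ± 0.15 and Gria3 by 0.45 ± 0.13, without overlap but under 2-fold. With the mean of the probe sets the Gria3 value was -0.079, so its sign depends on how probe sets are combined. Gria2 passed 2-fold without nucleus replicate 2 (-1.06) and with the hybridisation controls as a covariate (-1.07). Shisa6 (-2.30 ± 0.13) and Syndig1 (-2.10 ± 0.10) were among 6 of 18 auxiliary genes that were lower, and Neto1 was higher (1.06 ± 0.11). Synaptic partners were higher in 3 of 19 and lower in 4, with C1ql3 at 4.05 ± 0.34 and Nptx1 at -2.40 ± 0.12. Oligodendrocyte markers were higher in 7 of 9 (list mean 12.05 against 10.47 to 10.55) and so were 5 of 6 oligodendrocyte precursor and 5 of 9 microglia markers, and their part was not tested.

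Spinal cord and brainstem differed in 0 of 9 genes, against 1.08% of all genes. At an unadjusted p under 0.05, limma found 8 of 9, and the share of all genes at that level was not counted. Grik3 had the largest difference, -0.74 ± 0.14 (adjusted p = 2.91e-05), with 6.94 and 7.31 in the anterior and 7.28 and 7.74 in the posterior piece. The 2 pieces of cord held Gria1 at 9.59 and 9.88 anterior and 10.24 and 10.36 posterior, and Gria2 at 10.40 and 10.56 and 11.26 and 11.29, without overlap of their arrays, a difference that was not tested. Gsg1l was the 1 of 18 auxiliary genes called, lower in cord at -1.05 ± 0.092 (adjusted p = 9.58e-15). Of 19 synaptic partners 0 were higher and 0 lower. Astrocyte markers were higher in 3 of 10 and oligodendrocyte markers in 3 of 9, and their part was not tested.

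POA/BF was set against all 51 other regions together and against the medial preoptic area alone. In the first comparison 0 of 9 genes were called, while 1.65% of all genes were. At an unadjusted p under 0.05 limma found 3 of 9, and the share of all genes at that level was not counted. The levels in the 2 arrays were 11.07 and 11.13 for Gria1, 11.39 and 11.31 for Gria2, 9.40 and 9.20 for Gria3 and 10.18 and 10.11 for Gria4. For the kainate subunits they were 7.69 and 7.37 for Grik1, 7.84 and 7.57 for Grik2, 8.55 and 7.83 for Grik3, 7.85 and 8.01 for Grik4 and 9.86 and 9.98 for Grik5. Its arrays lay within the range of the other regions for all 9 genes, at ranks 16 (Grik1) to 37 (Grik2) of 52. Grik1 had the largest difference, 0.54 ± 0.12 (adjusted p = 0.000367), which was under 2-fold. Against the medial preoptic area, Grik3 was lower (8.55 and 7.83 against 9.38 and 9.55), a difference of 2.42-fold (-1.27 ± 0.26 SE on the log2 scale, adjusted p = 6.18e-05). It was the 1 of 9 genes called, against 4.16% of all genes. Without POA/BF replicate 2 the difference was -0.92, and with the mean of the probe sets -0.61, and neither was called. Grik1 (-0.81 ± 0.17) and Grik2 (-0.53 ± 0.11) had lower values in POA/BF, under 2-fold, without overlap. Dlg4 (-1.83 ± 0.34) and C1ql2 (-1.70 ± 0.16) were among 3 of 19 partners that were lower, with 0 higher. Meningeal fibroblast markers were higher in POA/BF in 9 of 10 (list mean 10.23 against 7.26) and oligodendrocyte markers in 8 of 9 (10.97 against 8.99), with endothelial markers higher in 4 of 8, and their part was not tested.

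In the pineal gland, the pituitary and the arrays labelled retina, Gria1, Gria2 and Gria3 were lower than the mean of brain and cord. Where the lower mean is under 7.39, as for Gria2 and Gria3 in the pineal gland, the size of a fold is uncertain. In the pineal gland Gria2 stood at 6.23 and 6.64, a difference of 36.7-fold (-5.20 ± 0.11 SE on the log2 scale, adjusted p = 1.86e-46) from the mean of brain and cord. Gria4 was at 7.15 and 7.13 (-3.23 ± 0.10), Gria3 at 6.88 and 6.85 (-2.90 ± 0.10) and Gria1 at 8.70 and 8.90 (-2.26 ± 0.13), and of these only Gria1 overlapped brain arrays. With Grik1 (-2.26 ± 0.12), Grik2 (-1.28 ± 0.081) and Grik5 (-1.07 ± 0.11), 7 of 9 genes were lower, against 15.3% of all genes called either way. Grik3, at 8.51 and 8.22, differed by 0.012 ± 0.18, and by -0.015 with the mean of the probe sets. That mean also moved Gria2 to -4.47, Gria3 to -3.57 and Grik1 to -1.05, all still called. With region means as the samples, the calls of Gria1, Grik2 and Grik5 were lost (adjusted p = 0.0976, 0.065 and 0.225), and without pineal replicate 1 that of Grik5 (-0.95). Among pan-neuronal markers 5 of 10 were lower: Nefl stood at 5.81 and Rbfox3 at 7.05, while Snap25 was at 13.37, near its brain and cord median of 13.43. Meningeal fibroblast markers were higher in 8 of 10 (list mean 10.29 against 7.02 to 10.34) and endothelial markers in 4 of 8. Astrocyte markers were lower in 8 of 10 (8.96 against 10.42 to 12.16) and oligodendrocyte markers in 8 of 9 (7.03 against 7.79 to 12.28). Photoreceptor markers were higher in 3 of 7. The part of these lists was not tested. Among 19 synaptic partners 1 was higher and 6 lower, and of 18 auxiliary genes 0 were higher and 13 lower.

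In the pituitary 3 of 9 genes were lower, against 13.3% of all genes called either way. Gria1 was at 8.08 and 8.00, a difference of 8.09-fold (-3.02 ± 0.13 SE on the log2 scale, adjusted p = 1.08e-30). Gria3 was at 7.20 and 7.33, a difference of 5.66-fold (-2.50 ± 0.10 SE on the log2 scale, adjusted p = 9.15e-31), and Gria2 at 10.01 and 9.79, a difference of 3.32-fold (-1.73 ± 0.11 SE on the log2 scale, adjusted p = 1.44e-21). With region means as the samples, the Gria2 call was lost (adjusted p = 0.0958). Grik1, at 6.28 and 5.99, differed by -0.97 ± 0.12, just short of 2-fold, and was called with each array centred (-1.01) and without pituitary replicate 1 (-1.11). With the mean of the probe sets Gria4 was called (-1.19), and the Gria3 difference was -3.16. Gria4 (9.43 and 9.91, a difference of -0.70 ± 0.10), Grik2 (7.89 and 7.87), Grik3 (9.02 and 8.50) and Grik5 (9.89 and 9.60) lay within the range of brain arrays, and Gria1 and Gria2 overlapped the pontine nucleus alone. In the pituitary 9 of 10 pan-neuronal markers were lower, with a list mean of 9.57 against 10.74 to 12.48 over brain and cord. Astrocyte markers were lower in 10 of 10 (8.10 against 10.42 to 12.16) and oligodendrocyte markers in 9 of 9 (7.55 against 7.79 to 12.28). Pituitary hormone markers were higher in 7 of 7 (13.94 against 6.77 to 9.19) and meningeal fibroblast markers in 6 of 10 (8.87 against 7.02 to 10.34). The part of these lists was not tested. Among 19 synaptic partners 0 were higher and 9 lower, and of 18 auxiliary genes 0 were higher and 12 lower.

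In the arrays labelled retina, Gria1 stood at 6.46 and 6.77, Gria2 at 8.05 and 7.47 and Gria3 at 6.48 and 6.26, below every brain and cord array. The differences were 21.8-fold (-4.45 ± 0.13 SE on the log2 scale, adjusted p = 4.68e-40) for Gria1, 14.6-fold (-3.87 ± 0.11 SE on the log2 scale, adjusted p = 1.1e-39) for Gria2 and 10.5-fold (-3.40 ± 0.10 SE on the log2 scale, adjusted p = 3.18e-38) for Gria3. With Gria4 (-2.34 ± 0.10), Grik1 (-2.23 ± 0.12), Grik2 (-1.45 ± 0.081) and Grik3 (-1.79 ± 0.18), 7 of 9 genes were lower, against 21.4% of all genes called either way. The median of all genes moved by -0.18 in this comparison when each array was centred, and by -0.11 under quantile normalization, in which Grik5 passed 2-fold as well (-1.03 in both). With region means as the samples, the Grik3 call was lost (adjusted p = 0.148). With the mean of the probe sets, Grik1 was at -1.27 and Grik3 at -1.07, both still called. As the second probe set of each varied little over regions, these calls are not a second measurement. These arrays held all 7 pituitary hormone markers and all 7 photoreceptor markers above brain and cord, at list means of 12.05 and 10.92 against 6.77 to 9.19 and 6.31 to 6.79. All 10 pan-neuronal markers were lower, with a list mean of 8.92, among them Snap25 at 10.46 against 13.43, and meningeal fibroblast markers were higher in 7 of 10 (11.14). Oligodendrocyte markers were lower in 8 and higher in 1 of 9, astrocyte markers were lower in 5 of 10, and endothelial markers were higher in 6 of 8 and microglia markers in 5 of 9. Synaptic partners were higher in 0 of 19 and lower in 11, and of 18 auxiliary genes 0 were higher and 14 lower. The part of these cells in the low subunit levels was not tested.

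The subunit genes fell into like and unlike patterns over regions. These correlations are descriptions over region means, which share arrays, normalization and the cell makeup of each piece of tissue. Over the 49 regions of brain and cord, Gria1 and Gria2 followed each other most closely (r = 0.82), then Gria2 and Grik5 (r = 0.78) and Gria1 and Grik5 (r = 0.69). Gria4 ran against them, with r = -0.41 to Gria1, -0.47 to Gria2 and -0.52 to Grik5, and had its closest match in Grik1 (r = 0.41). Over all 52 regions, with retina and glands low for most genes, Gria1 and Gria2 had r = 0.82 and Gria4 and Gria2 r = 0.29. Without the 2 regions farthest from the median of Gria1, retina and pontine nucleus, Gria1 and Gria2 had r = 0.76. Grik3 and Grik4 had no close match among the subunits (r at most 0.20 for Grik4 and 0.16 for Grik3).

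**Figure D4:**
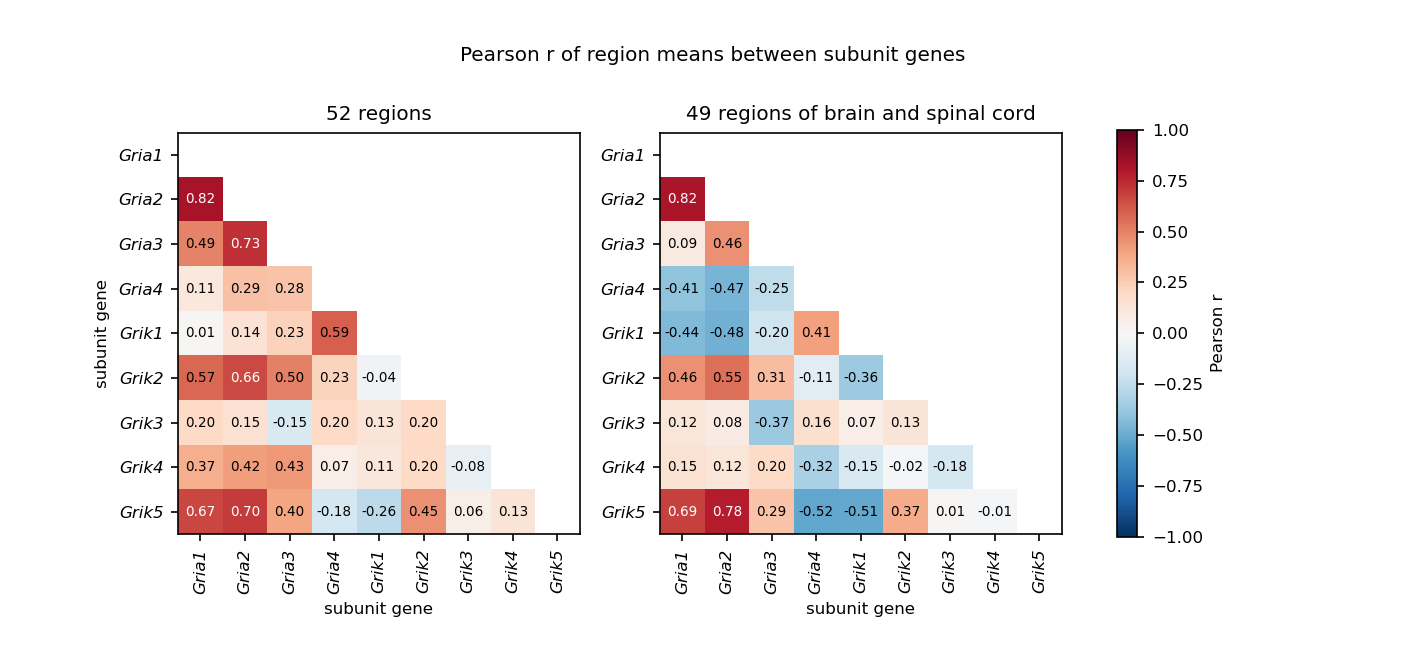
Pearson r between the region means of each pair of subunit genes, over all 52 regions (left) and over the 49 regions of brain and spinal cord (right); colour and number both give r. Gria1, Gria2 and Grik5 form a positive group in both, and the values of Gria4 to that group are below 0 within brain and cord.

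Of the auxiliary genes, Shisa7 followed Grik5 (r = 0.89) and Gria2 (r = 0.85) over the 49 regions, Cnih2 followed Grik5 (r = 0.82) and Gria1 (r = 0.76), and Cacng8 followed Grik5 (r = 0.79) and Gria2 (r = 0.77). These 3 genes, read after their values were seen, were highest in CA1 within brain and cord, as Gria1 and Grik5 were. Cacng2, stargazin, had its closest match in Gria4 (r = 0.51) and was highest in the cerebellar lobe within brain and cord. For the kainate receptors, Neto2 had its closest match in Grik2 (r = 0.61), and both were high in caudate putamen. Neto1 and Grik4, both highest in CA2/CA3 within brain and cord, had r = 0.26 over all 49 regions.

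Among all genes measured, those with the pattern most like each subunit over the 52 region means were named by rule, 3 for each. For Gria1 they were Bag4 (r = 0.884), Jph4 (0.830) and Cnih2 (0.827), and for Gria2 Nlgn3 (0.915), Gpm6a (0.913) and Myt1l (0.912). For Gria3 they were Anks1b (0.881), Mpv17l (0.870) and Ppp2r2c (0.854), and for Gria4 Prune2 (0.843), Aldoc (0.827), an enzyme of astrocytes and Purkinje cells, and Dnm3 (0.778). Within brain and cord the r of Gria2 with Nlgn3 was 0.791 (rank 61), and that of Gria4 with Dnm3 was 0.604 (rank 304), while Bag4 kept rank 1 for Gria1. The genes most like Gria2 there were Cracdl (0.897), Kcnip2 (0.889) and Rab40b (0.881). Grik1 was most like Camk2n2 (0.816), Mast1 (0.737) and Slc25a18 (0.733), and Grik2 like Gpr158 (0.818), Ipw (0.772) and Qrich1 (0.763). Grik5 was most like Psd (0.930), the closest single match of the 9 subunits, Fam171a1 (0.913) and Arhgap33 (0.901), with Psd at 0.924 within brain and cord. The matches of Grik3, Cpsf7 (0.636), Klhl7 (0.634) and Sgsm1 (0.624), and of Grik4, Arhgef4 (0.635), Atp8a1 (0.611) and Mycbp2 (0.603), were weaker.

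The 9 genes had 18 probe sets, and 7 genes had more than 1. For Gria1, Gria3, Gria4 and Grik2 the other probe sets followed the one used, with r from 0.87 (a Gria4 probe set) to 0.97 (Gria1) over the 52 regions. Gria2 had r = 0.98 and 0.83. Within brain and cord these values were 0.95 and 0.73, and that of the other Gria3 probe set was 0.87. The highest region was CA1 for the other Gria3 probe set and for the Gria2 probe set with r = 0.98, unlike the probe sets used. The second Grik3 probe set spanned only 0.55 on the log2 scale over the regions, with r = 0.051 to the one used. The second Grik1 probe set spanned 0.97, with r = 0.13, and was under 7.39 in 52 of 52 regions. The regional differences of Grik1 and Grik3 thus rest on 1 probe set each, and those of Grik4 and Grik5 on the only one each gene had. For Grik1 and Grik3 the mean of the probe sets mainly reduces a difference. Calls kept or lost under that mean are therefore not a second measurement of these genes. In cerebellar cortex the 3 Gria4 probe sets differed from isocortex by 2.02, 1.96 and 1.40, and in striatum both Grik2 probe sets were higher, by 1.33 and 1.59.

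**Figure D5:**
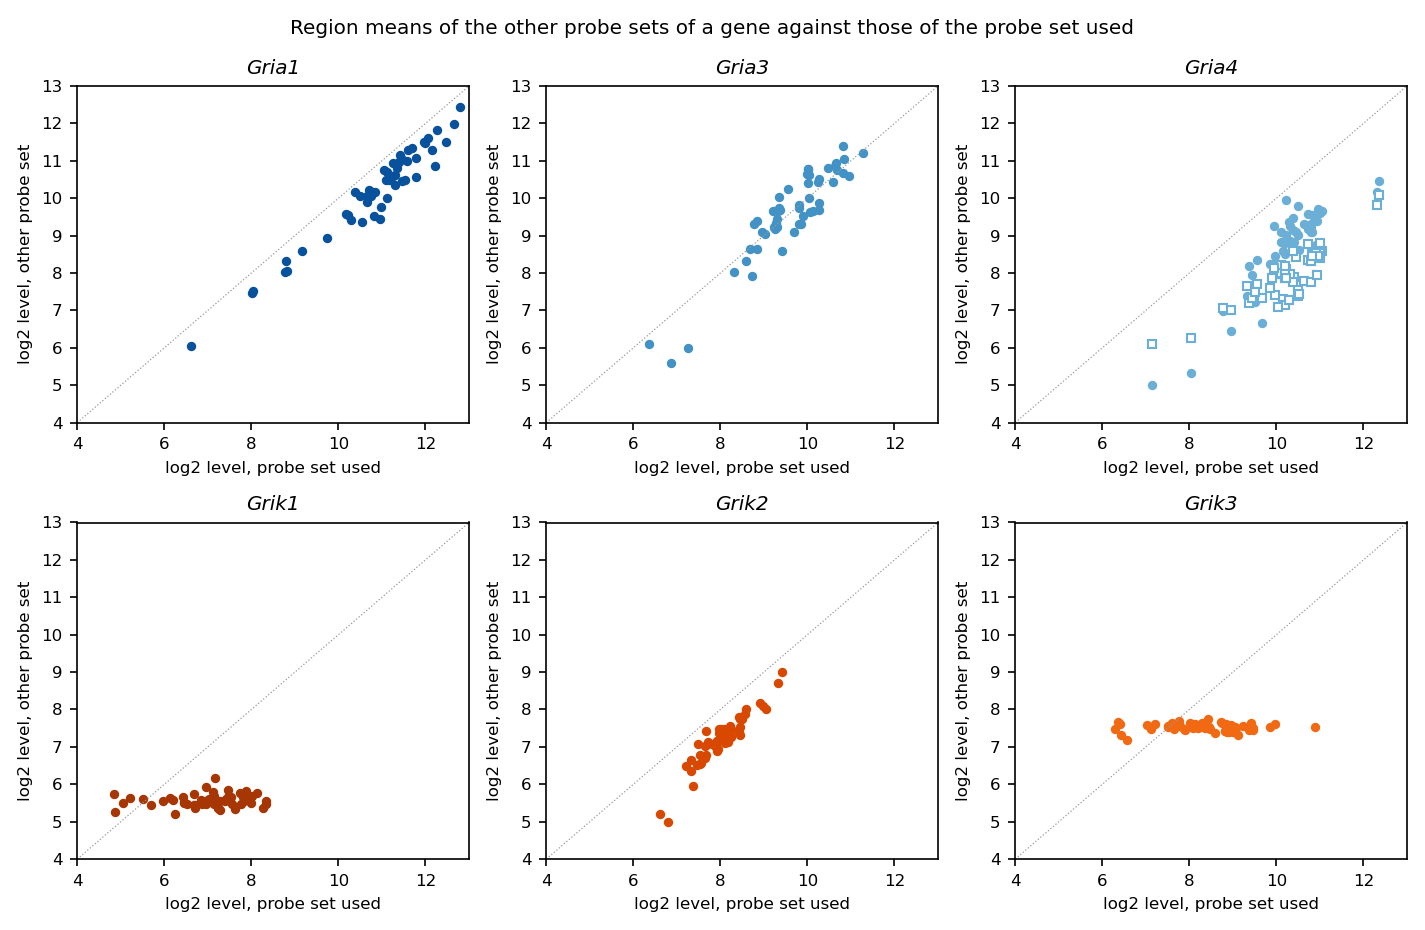
Region means (log2 level, 52 points per probe set) of the other probe sets of 6 subunit genes against those of the probe set used; open squares mark a second additional probe set of Gria4 and the dotted line marks equal values. The points of Gria1, Gria3, Gria4 and Grik2 rise together, while those of Grik1 and Grik3 lie flat.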

How the data were processed

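RNA of 52 regions was measured on Affymetrix mouse arrays, 2 a region. The authors deposited log2 values; the submitters' processing notes name RMA, with no version. No further normalization was applied. Array medians ran from 7.33 to 7.46, and 2 arrays a region limit the precision. Of 45101 probe sets, 34958 had 1 gene symbol, 932 several, 9147 none, and 64 were controls; probe sets without a single symbol were left out. Each gene is represented by its brightest probe set on average, for 18194 genes in all, 9012 of them with several probe sets.

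A mean for each region was fitted with limma 3.58.1 under R 4.3.3 (52 residual degrees of freedom), with two-sided tests, Benjamini-Hochberg adjustment over all genes and a call at an adjusted p under 0.05 and at least 2-fold. Differences among all regions used the limma F test. The procedure was tested on simulated data. Levels, correlations and promoters were computed with Python 3.11.15, pandas 2.3.3 and NumPy 2.4.6. Genes were named by rule. The 9 subunits were always named. So were the 3 genes most like each by Pearson r over region means, among genes whose highest mean reached the median of all values. From 3 lists, up to 2 called genes per direction were named in each comparison. The lists were auxiliary proteins, synaptic partners, and RNA editing enzymes with their relative Adarb2. Not all list genes that met this rule are printed. Correlations with auxiliary genes were chosen after their values were seen. Shisa8 and Nptxr were not measured. Subunits, lists and tests were chosen with earlier results of these data known. The alternatives tried were no fold threshold, averaged probe sets, dim genes left out, arrays centred on their medians, quantile normalization, another variance model, a replicate block, fewer arrays or regions in the fit, region means as the samples, hybridisation controls as a covariate, and leaving out each of 88 arrays in turn.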

Additional observations from a re-analysis of the deposited data

How the results depend on the processing

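No called difference of the 9 genes changed sign under the alternatives run, which covered 144 differences unless stated. Some that were not called did, such as Gria1 in the dentate gyrus (-0.26 to 0.27). Array centring changed 2 calls, quantile normalization 3, the mean of the probe sets 4, region means 6 of 108 and the hybridisation controls 4 of 126. The filter on dim genes, the other variance model, the fit on the compared arrays alone and the replicate block changed 0 of 144. In the fit with a replicate block, the thalamus again had 3 genes called and the cerebellar cortex 3. Same-numbered arrays of different regions had no common direction of deviation (1326 region pairs, median r = -0.00038, 24.7% above 0.1). Single region pairs ran from r = -0.50 to 0.52. The median cannot show whether some regions shared a batch or an occasion, so whether samples are paired remains unknown.

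The 2-fold threshold had the most effect on counts. Without it, the genes called were 3 for POA/BF against other regions and 4 against the medial preoptic area, 6 for CA fields, 5 for CA2/CA3 against CA1, 6 for the dentate gyrus, 8 for striatum, 7 for olfactory bulb, 9 for thalamus, 8 for hypothalamus, 9 for brainstem, 7 for cerebellar cortex, 7 for the cerebellar nucleus, 6 for spinal cord and 7 for the pituitary. The share of all genes called without the threshold was not counted, so these counts of subunits cannot be set against it. With the mean of the probe sets, the counts were 0 for POA/BF against the medial preoptic area, 2 for olfactory bulb and 1 for striatum. The hybridisation controls gave 3 for olfactory bulb, and region means gave 4 for the pineal gland. With each array left out in turn, the count ran from 0 to 1 for POA/BF against the medial preoptic area (0 without POA/BF replicate 2), from 0 to 1 for the dentate gyrus (1 without CA1 replicate 1 or dentate gyrus replicate 2) and from 1 to 3 for olfactory bulb (2 without retrosplenial replicate 1, motor cortex replicate 1 or 2, anterior bulb replicate 1 or posterior bulb replicate 2, and 3 without cingulate replicate 1). Leaving out arrays kept the other counts within 1.5 times.

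The hybridisation controls could not be used for POA/BF, and region means were not run where a class held too few regions (POA/BF or CA2/CA3 against 1 region, dentate gyrus, cerebellar nucleus). Region means of these controls ran from 9.29 in the dorsal subparaventricular piece to 11.21 in the supraoptic nucleus, a difference that cannot be told apart from region. Their covariate was fitted beside a mean for each region, so its slope rests only on differences between arrays of one region. Grik1 was below the median of all values in 32 regions, so the size of its differences is uncertain. The cause of changes other than those of the threshold was not tested.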

Other observations

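Some synaptic partners of these receptors had wide ranges over the 49 regions of brain and spinal cord, to which the levels given here are limited. C1ql3 ran from 12.14 in cingulate cortex to 6.19 in the olfactory tubercle, and Lrrtm1 from 11.17 in the lateral geniculate to 5.55 in the cerebellar lobe. The pentraxin Nptx2 was highest in the habenula (10.35), where Gria3 was lowest in brain and cord. Among the editing enzymes, Adarb1 was highest in the ventral anterior and ventrolateral thalamus (11.53) and lowest in the median eminence (9.01), whereas Adar spanned 0.97 on the log2 scale over the same regions.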
